A study of Mus musculus with 6 samples.

Results

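Glucocorticoid-responsive genes were followed through lung development around birth by single-cell RNA sequencing. The set was a list of 9 genes, given by name, out of the 31053 features of the count tables. It comprised the glucocorticoid receptor gene Nr3c1, the steroid-activating enzyme gene Hsd11b1, the target genes Fkbp5, Tsc22d3, Per1, Zbtb16 and Sgk1, and the metallothionein genes Mt1 and Mt2. Each gene was measured in endothelial cells (ECs) and mesenchymal cells at each time point, and in 4 cell classes of whole E18.5 lungs.

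Glucocorticoids are steroid hormones that diffuse into cells and bind the receptor encoded by Nr3c1, which then moves to the nucleus and switches target genes on or off. The fetal surge of these hormones before birth is known for its part in lung maturation, and it is the reason why synthetic glucocorticoids are given before preterm delivery. The enzyme encoded by Hsd11b1 regenerates active hormone from its inactive keto form inside the cell, so local hormone tone can differ from that of the blood.

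The data were 6 droplet libraries of mouse lung cells, with 1 library in each group. In 4 of them, cells were sorted from Cxcl12DsRed/+ lungs, which carry 1 copy of a red reporter inserted into the chemokine gene Cxcl12, at embryonic days E13.5, E15.5 and E18.5 and at postnatal day P8. The sort took CD45- EpCAM- cells that were positive for the reporter. The study gives the gate of the time course as CD31+ in one place, and its methods and the labels add a CD31- mesenchymal-enriched fraction, without saying which fraction entered which library. Mesenchymal cells were found in all 4 sorted libraries and are those that passed this sort, not a sample of the whole mesenchyme. The other 2 libraries were unsorted E18.5 lungs labelled Cxcl12DsRed/+ (control) and Cxcl12DsRed/DsRed (null), and all 6 libraries carry at least 1 reporter allele. The sorted cells came from several lungs pooled at each age. More than 1 lung of each genotype is described for the unsorted comparison, and whether lungs were pooled in these libraries is not stated in the sources used here. With 1 library a group no test was possible: values are summed unique molecular identifiers (UMIs), scaled to 1000000 UMIs of the pooled cells (CPM), and the intervals in parentheses are exact Poisson intervals at 95%, or exact intervals of a fold, that cover counting error only. UMIs counted at the 3′ end were not scaled by length, so levels were compared between pools and never between genes.

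The labels of the whole lungs could not be reconciled with their data. ECs of the library labelled null held 564 CPM of Cxcl12 and those of the library labelled control 5.10 CPM, against 727 to 1254 CPM in the sorted ECs, and the names of the deposited files give the opposite genotypes. The libraries are therefore called the library labelled null and the library labelled control throughout, and no direction between them is read as an effect of genotype. The whole lungs also shared 140 cell barcodes, or 1.58% of the smaller library, against 0.203% to 0.457% for the other pairs of libraries. The libraries held 63746333 to 117522172 UMIs in 8845 to 13098 barcodes.

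Cells were classed by their own UMIs, with at least 2 of Pecam1 and Cdh5 for ECs and at least 5 of Col1a1 and Col3a1 for mesenchymal cells. The E13.5 library gave 165 ECs and 11216 mesenchymal cells, E15.5 gave 8322 and 2035, E18.5 gave 8792 and 278, and P8 gave 8132 and 68. The library labelled null gave 2579 ECs, 4479 mesenchymal, 420 epithelial and 653 immune cells, and the library labelled control gave 1695, 4243, 652 and 645. All 8 further endothelial markers, such as Kdr, Tie1 and Cldn5, were at 10 CPM or more in every EC pool, and 7 of 7 mesenchymal markers in every mesenchymal pool (Vim, which ECs also express, was left out). The few ECs at E13.5 and the few mesenchymal cells at E18.5 and P8 set the width of the intervals there.

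Nr3c1, the receptor, was detected in both cell types at every age, and in the sorted libraries its level was higher at each later time point. In ECs it measured 26.4 CPM (17.9 to 37.4) at E13.5, 31.5 CPM (30.3 to 32.7) at E15.5, 93.1 CPM (90.6 to 95.6) at E18.5 and 137 CPM (134 to 140) at P8. The first 2 intervals overlapped and the others did not. The largest step was between E15.5 and E18.5, at 2.95-fold (2.82 to 3.1), and P8 was a further 1.47-fold higher (1.42 to 1.53). In mesenchymal cells it measured 48.4, 59.9, 130 and 219 CPM in the same order, with 2.17-fold (1.91 to 2.46) between E15.5 and E18.5 and 1.69-fold (1.36 to 2.09) between E18.5 and P8. Receptor message was thus higher in mesenchymal cells than in ECs of the same library at each of the 4 ages. ECs of the unsorted E18.5 lungs held 95.7 CPM (labelled null) and 111 CPM (labelled control), close to the sorted E18.5 value, and their mesenchymal cells 231 and 238 CPM, above the 130 CPM of the sorted mesenchymal cells. These mesenchymal values were also above the 219 CPM of P8, inside its interval (182 to 263, 68 cells). The order of E18.5 and P8 in mesenchymal cells therefore depended on the E18.5 library.

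Hsd11b1, the activating enzyme, had the largest fold between mesenchymal cells and ECs among the members from E18.5 on. Mesenchymal cells held 0.274 CPM (0.177 to 0.404) at E13.5, 0.660 CPM (0.329 to 1.18) at E15.5, 143 CPM (129 to 158) at E18.5 and 160 CPM (128 to 198) at P8. The E18.5 pool stood 217-fold (120 to 438) above the E15.5 pool, the second highest ratio of 8775 genes, and P8 was within counting error of E18.5 (1.12-fold, 0.875 to 1.42). ECs held 0.850 CPM at E13.5 (1 UMI), 0.0487 CPM at E15.5 (4 UMIs), then 0.373 CPM at E18.5 (21 UMIs) and 0.548 CPM at P8 (33 UMIs). The gene was therefore near 0 in ECs of every sorted library. In unsorted lungs the mesenchymal level was 262 CPM (labelled null) and 286 CPM (labelled control), and the EC level 2.62 and 1.54 CPM. Epithelial cells held 1.13 and 0.835 CPM and immune cells 9.44 and 9.75 CPM, in the same order of libraries.

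At the level of single cells, the Hsd11b1 difference was one of the share of cells with a UMI as well. With each cell thinned to 2000 UMIs, 16.2% (12.1 to 21.1) of sorted mesenchymal cells held a UMI at E18.5 and 0.0990% (0.0120 to 0.357) at E15.5. The unthinned shares were 23.7% and 0.491%, at median depths of 8613 and 7743 UMIs. In the unsorted lungs the thinned shares were 25.1% and 28.5% of mesenchymal cells (labelled null and control, 37.2% and 39.9% unthinned). The thinned shares in ECs, which served as the background of free RNA, were 0.352% and 0.178% (2.44% and 1.18% unthinned, at median depths of 8264 and 7341 UMIs). Thinning left out 8 and 9 mesenchymal cells and 22 and 9 ECs of the libraries labelled null and control.

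Within the mesenchyme, the enzyme gene was concentrated at E18.5 in the cells gated as alveolar fibroblast-like (at least 3 UMIs of Tcf21, Wnt2, Npnt and Limch1). They held 543 CPM (labelled null, 1298 cells), 612 CPM (labelled control, 1599 cells) and 782 CPM (sorted E18.5, 56 cells). Smooth muscle and myofibroblast-like cells (at least 5 UMIs of Acta2, Tagln, Myh11 and Actg2) held 4.74, 6.93 and 3.48 CPM in the same order, from 1606, 1465 and 91 cells. The cells that passed the alveolar fibroblast-like gate alone carried 56.2%, 78.2% and 71.8% of the Hsd11b1 UMIs of the mesenchymal pools. Those that passed the smooth muscle and myofibroblast-like gate alone carried 0.573%, 0.765% and 0.804%. Cells that passed more than 1 sub-class gate, at 304 CPM (1327 cells), 267 CPM (685 cells) and 91.0 CPM (98 cells), carried 42.9%, 20.5% and 26.8%. Cells that passed none held 25.7 and 15.3 CPM in the unsorted lungs. Only 24, 16 and 16 cells passed the adventitial fibroblast-like gate alone (at least 5 UMIs of Dcn, Lum, Pi16 and Serpinf1), with 1, 2 and 0 UMIs of the gene, too few for a level. All cells that passed that gate, with or without another, held 47.7, 49.2 and 19.6 CPM. Among them, the 63, 42 and 34 cells that did not pass the alveolar fibroblast-like gate held only 2, 4 and 3 UMIs of the gene. Alveolar fibroblast-like cells at E13.5 held 0.587 CPM (0.160 to 1.5), from 785 cells. The receptor had the opposite order between these sub-classes in the unsorted lungs, with 180 and 179 CPM in alveolar fibroblast-like and 349 and 323 CPM in smooth muscle and myofibroblast-like cells.

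H6pd, which supplies the cofactor that lets the Hsd11b1 enzyme work in the activating direction, measured 6.18, 11.8, 42.5 and 24.2 CPM in mesenchymal cells from E13.5 to P8, and 59.3 and 55.9 CPM in those of the unsorted lungs. In ECs it stayed between 1.94 and 4.12 CPM in all 6 libraries. Hsd11b2, whose product inactivates the hormone, held between 0.438 and 3.40 CPM in ECs and between 0.780 and 14.9 CPM in mesenchymal cells. The mineralocorticoid receptor gene Nr3c2 was at 1.31 CPM or less in every pool of both types. Serpina6, which encodes the hormone carrier of plasma and is made mainly by liver, had no UMI in any of them.

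**Figure D1:**
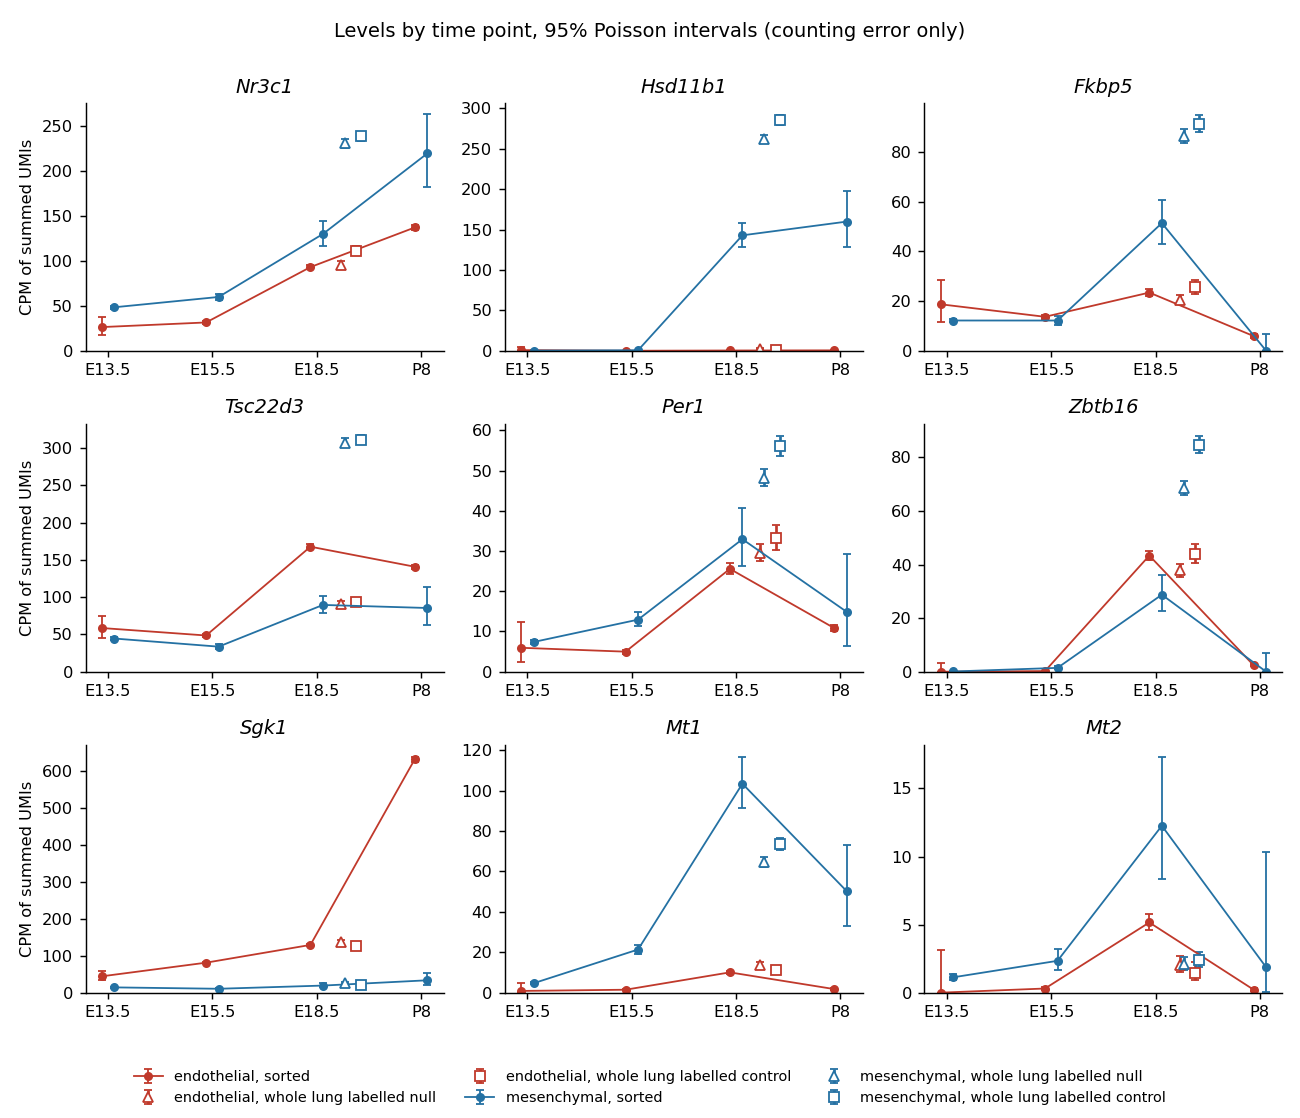
Levels of the 9 genes in CPM (vertical axes, 1 panel a gene) in sorted endothelial (red) and mesenchymal (blue) cells over the 4 ages, drawn at even spacing, with exact 95% Poisson bars for counting error; open triangles and squares beside E18.5 are the unsorted lungs labelled null and control. Zbtb16 in endothelial cells measured 0.243, 43.3 and 2.39 CPM at the last 3 time points, Sgk1 was highest at P8 with 632 CPM, and Hsd11b1 was near 0 in endothelial cells throughout.

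Zbtb16, a zinc finger transcriptional repressor that is a known direct target of the receptor in several tissues, was found mostly at E18.5. No UMI was found among 165 ECs at E13.5, which allows up to 2.55 CPM, and E15.5 held 0.243 CPM (0.149 to 0.376), from 20 UMIs in 8322 cells. ECs then held 43.3 CPM (41.6 to 45.1) at E18.5 and 2.39 CPM (2.02 to 2.82) at P8. The step between E15.5 and E18.5 was 178-fold (115 to 292), the third highest ratio of 8441 genes. P8 was 18.1-fold lower than E18.5 (15.3 to 21.6), placed 8407 from the highest of 8426 genes. Mesenchymal cells held 0.0875 CPM at E13.5, 1.44 CPM at E15.5, then 28.7 CPM at E18.5 and no UMI at P8 (up to 5.58 CPM at 68 cells), which put E18.5 20.0-fold (12.5 to 33.1) above E15.5 and at least 5.15-fold above P8. The gene was at its highest at E18.5 in both cell types.

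The E18.5 level of Zbtb16 was seen in separate libraries. ECs held 37.8 CPM in the library labelled null and 44.0 CPM in the library labelled control, either side of the sorted value, and mesenchymal cells held 68.4 and 84.7 CPM. Epithelial cells held 5.78 and 5.47 CPM and immune cells 0.703 and 1.14 CPM. After thinning to 2000 UMIs, 8.59% (8.01 to 9.20) of sorted ECs had a UMI at E18.5, against 0.0602% at E15.5 and 0.391% at P8 (22.5%, 0.204% and 1.72% unthinned). ECs of the unsorted lungs gave 7.78% and 8.48%, and immune cells 0.155% and 0.311% (1.07% and 1.55% unthinned, at median depths of 14714 and 14523 UMIs). Thinning left out 19, 141 and 197 sorted ECs at E15.5, E18.5 and P8.

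The EC sub-classes gave the same order of ages. General capillary-like ECs (at least 4 UMIs of Gpihbp1, Ptprb, Plvap and Aplnr) held no Zbtb16 UMI at E15.5, 55.6 CPM at E18.5, with 4.44 CPM at P8. Arterial-like ECs (at least 4 UMIs of Gja5, Gja4, Hey1 and Sox17) held 0.355, 51.9 and 6.32 CPM. Aerocyte-like ECs (at least 3 UMIs of Car4, Ednrb, Fibin and Tbx2), which line the thin capillaries of gas exchange, held 52.0 CPM at E18.5, with 2.29 CPM at P8. The intervals of the 3 sub-classes overlapped at E18.5, and ECs with and without cycling genes held 39.0 and 44.0 CPM.

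Fkbp5 encodes a co-chaperone that lowers the affinity of the receptor for its hormone, and its induction is a standard readout of receptor activity. In ECs it measured 18.7 CPM (11.7 to 28.3) at E13.5, 13.7 CPM (12.9 to 14.5) at E15.5, 23.4 CPM (22.2 to 24.7) at E18.5 and 5.91 CPM (5.32 to 6.56) at P8. E18.5 stood 1.71-fold (1.58 to 1.86) above E15.5, short of 2-fold, and 3.96-fold (3.52 to 4.46) above P8. The E13.5 interval held both of the next 2 values. In mesenchymal cells the E18.5 value was further from its neighbours: 12.2 CPM at E13.5, 12.2 CPM at E15.5, then 51.3 CPM at E18.5 and no UMI at P8 (up to 5.58 CPM), or 4.22-fold (3.37 to 5.27) above E15.5 and at least 9.20-fold above P8. Unsorted E18.5 lungs held 20.5 and 25.5 CPM in ECs, 86.4 and 91.4 CPM in mesenchymal cells, 72.3 and 62.4 CPM in immune cells and 9.92 and 8.35 CPM in epithelial cells. With the SoupX correction of the authors for free RNA in droplets, deposited for the unsorted lungs alone, their ECs held 9.56 and 4.90 CPM (labelled null and control), both below the sorted E15.5 value and the second below the P8 value, and mesenchymal cells 90.0 and 108 CPM. Whether the higher EC level of E18.5 was seen outside the sorted library thus depended on the counts used. No corrected values exist for the sorted libraries, so here and below adjusted values are set against unadjusted sorted ones.

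Tsc22d3 encodes GILZ, an anti-inflammatory mediator of glucocorticoid action. ECs held 58.7 CPM (45.6 to 74.2) at E13.5, 48.6 CPM (47.1 to 50.2) at E15.5, 168 CPM (164 to 171) at E18.5 and 141 CPM (138 to 144) at P8. E18.5 was 3.45-fold (3.32 to 3.58) above E15.5, but P8 was only 1.19-fold lower (1.16 to 1.23). The spread among E18.5 libraries was wider than that step, since unsorted ECs held 91.4 and 93.3 CPM, 1.80-fold (1.70 to 1.91) below the sorted ECs for the library labelled control. With the SoupX correction they held 67.7 and 21.7 CPM, the second below the E15.5 value. The order of the ages for this gene therefore changed with the E18.5 library and the counts used. Mesenchymal cells held 44.6, 33.6, 89.7 and 85.5 CPM through the time course, and 308 and 312 CPM in the unsorted lungs. There, smooth muscle and myofibroblast-like cells held 582 and 510 CPM and alveolar fibroblast-like cells 162 and 175 CPM, whereas the same gates in the sorted E18.5 library gave 60.3 and 158 CPM.

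Per1, a repressor of the circadian clock that glucocorticoids also induce, measured 5.95 CPM (2.39 to 12.3), 4.99 CPM (4.52 to 5.49), 25.6 CPM (24.3 to 26.9) and 10.9 CPM (10.0 to 11.7) in ECs from E13.5 to P8. E18.5 stood 5.13-fold (4.59 to 5.73) above E15.5 and 2.36-fold (2.15 to 2.59) above P8. In mesenchymal cells the values were 7.40, 12.95, 33.0 and 14.9 CPM. Unsorted ECs held 29.5 and 33.3 CPM and unsorted mesenchymal cells 48.2 and 56.1 CPM, so E18.5 was the highest age for this gene in each cell type by the unadjusted counts. With the SoupX correction, unsorted ECs held 17.8 CPM (labelled null) and 0.227 CPM (labelled control), and the latter lies below the E15.5 and P8 values of the sorted ECs. Unsorted mesenchymal cells then held 40.5 and 30.9 CPM. The hour at which lungs were taken is not given in the sources used here.

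Sgk1, a kinase that activates sodium transport and is induced by glucocorticoids and by serum and cell stress, went another way. ECs held 44.2 CPM (33.0 to 58.0) at E13.5, 81.2 CPM (79.2 to 83.1) at E15.5, 129 CPM (126 to 132) at E18.5 and 632 CPM (625 to 638) at P8, and no neighbouring intervals overlapped. The largest step came after E18.5, at 4.89-fold (4.77 to 5.01), ranked 56 of 8426 genes, and the step between E15.5 and E18.5 was 1.59-fold (1.54 to 1.65). It was seen in each EC sub-class: 102 and 559 CPM at E18.5 and P8 in general capillary-like, 111 and 798 CPM in arterial-like and 236 and 693 CPM in aerocyte-like ECs. Mesenchymal cells held only 14.3, 10.5, 19.2 and 33.5 CPM, and the intervals of the last 2 overlapped. In the unsorted lungs ECs held 138 and 125 CPM, mesenchymal cells 25.9 and 19.5 CPM, epithelial cells 6.53 and 2.97 CPM and immune cells 206 and 236 CPM.

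Promoters are shown for Sgk1 and Per1 because their time courses parted after E18.5, and each window is the 250 bases before a start in the RefSeq table of GRCm38.p6, 5′ to 3′ on the gene's strand. The Sgk1 window (chr10:21993640-21993889, plus strand, before the fifth of 6 starts in the table) holds the classical palindrome of the receptor, AGAACA and TGTTCT with 3 bases between them, in capitals, with its first base at position -189 from the start. That exact palindrome was in 3 of 32851 such windows, or 0.00913%, and in no other window of the members searched. The Per1 window (chr11:69098699-69098948, plus strand) holds 1 E-box, CACGTG, the site of clock factors, in capitals, at position -166, and 6.02% of all windows hold at least 1. The Sgk1 window holds 1 E-box as well, left in lower case near its 5′ end, so this motif does not set the windows apart. The window of the other Per1 start holds none, and that of Fkbp5 holds 1.
Sgk1: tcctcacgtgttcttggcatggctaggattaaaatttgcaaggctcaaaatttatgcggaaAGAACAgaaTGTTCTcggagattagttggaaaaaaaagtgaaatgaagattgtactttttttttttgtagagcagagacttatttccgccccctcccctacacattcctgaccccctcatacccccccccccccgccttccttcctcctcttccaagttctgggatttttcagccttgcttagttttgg
Per1: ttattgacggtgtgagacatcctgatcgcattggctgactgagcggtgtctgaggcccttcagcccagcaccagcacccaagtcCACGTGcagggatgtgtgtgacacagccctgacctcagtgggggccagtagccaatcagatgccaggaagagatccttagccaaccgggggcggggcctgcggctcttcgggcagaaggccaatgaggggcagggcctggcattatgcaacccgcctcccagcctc
A match is a sequence description only. Nr3c1 was left out of this search, and starts were found for 7 of the other 8 members, with 15 starts in all. Both strands were searched, and 16.1% of all windows hold a single AGAACA or TGTTCT.

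Sgk1 lies at chr10:21882184-21999903 on the plus strand of GRCm38 and Per1 at chr11:69095217-69109960 on the plus strand. Zbtb16 lies at chr9:48654297-48836222, Fkbp5 at chr17:28399094-28517527, Tsc22d3 at chrX:140539528-140600659 and Hsd11b1 at chr1:193221634-193264075, all 4 on the minus strand and all protein-coding. The last 300 bases of transcripts, where 3′ reads fall, were searched for 60-base stretches found in another gene. None was found for the members searched except Fkbp5, where 0.778% of windows were shared. Hsd11b1 overlaps Lamb3 and 4930570N18Rik on the opposite strand.

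The metallothioneins Mt1 and Mt2 encode small cysteine-rich proteins that bind zinc and copper and are induced by metals through MTF1 as well as by glucocorticoids. ECs held 0.850 CPM of Mt1 at E13.5 (1 UMI), 1.45 CPM (1.20 to 1.73) at E15.5, 10.0 CPM (9.23 to 10.9) at E18.5 and 1.76 CPM (1.44 to 2.13) at P8. E18.5 was 6.94-fold (5.69 to 8.53) above E15.5 and 5.70-fold (4.63 to 7.09) above P8. Mt2 followed at lower counts in ECs, with no UMI at E13.5, 0.304 CPM at E15.5, 5.16 CPM in the E18.5 pool and 0.216 CPM at P8, below the 10 CPM set for a call. In mesenchymal cells Mt1 measured 4.68, 21.4, 103 and 50.2 CPM and Mt2 1.13, 2.34, 12.3 and 1.86 CPM, the last from 1 UMI. For both genes E18.5 was the highest age in each sorted cell type, but Mt2 in mesenchymal cells of the unsorted E18.5 lungs measured 2.10 and 2.37 CPM, near the E15.5 value.

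Other cells of the lung held far more metallothionein message than ECs did. Mt1 measured 2173 and 1761 CPM in epithelial cells (labelled null and control), 1378 and 2168 CPM in immune cells, 64.6 and 73.7 CPM in mesenchymal cells and 13.5 and 11.2 CPM in ECs. Mt2 measured 344 and 244 CPM in epithelial cells, 64.7 and 145 CPM in immune cells and between 1.47 and 2.37 CPM in mesenchymal cells and ECs. After the SoupX correction, ECs of the unsorted lungs held 0 of Mt1 and Mt2 in both libraries and mesenchymal cells 3.89 and 0 CPM of Mt1. In the sorted ECs the surfactant gene Sftpc, a marker of alveolar type 2 cells, measured 0.850, 0.487, 20.1 and 19.0 CPM from E13.5 to P8. The 7 epithelial markers summed to 9.35, 6.46, 23.8 and 21.4 CPM in these pools, so they too were higher at E18.5 than at E15.5 and slightly lower at P8. Their part in the metallothionein values was not tested. Within the E18.5 sorted library Mt1 was uneven among ECs, at 28.4 CPM (21.6 to 36.7) in arterial-like, 2.15 CPM (0.864 to 4.43) in general capillary-like and 1.61 CPM (0.332 to 4.70) in aerocyte-like ECs. At E15.5 arterial-like ECs had held 1.60 CPM (0.946 to 2.52) and general capillary-like ECs 3.45 CPM (2.38 to 4.85). Arterial-like ECs were therefore higher at E18.5, whereas sorted general capillary-like ECs were not, with overlapping intervals. General capillary-like ECs of the unsorted lungs held 16.0 and 11.6 CPM before the correction.

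The promoter windows of the metallothioneins (250 bases before the RefSeq start, GRCm38.p6, plus strand, 5′ to 3′) are shown because the genes lie side by side and had their highest EC level at the same age. Capitals mark the core of the metal response element, TGCACNC or TGCGCNC, on either strand. Mt2 (chr8:94172368-94172617) holds 3 cores, with first bases at positions -223, -128 and -50 from the RefSeq start, and Mt1 (chr8:94178839-94179088) holds 1, at position -23.
Mt2: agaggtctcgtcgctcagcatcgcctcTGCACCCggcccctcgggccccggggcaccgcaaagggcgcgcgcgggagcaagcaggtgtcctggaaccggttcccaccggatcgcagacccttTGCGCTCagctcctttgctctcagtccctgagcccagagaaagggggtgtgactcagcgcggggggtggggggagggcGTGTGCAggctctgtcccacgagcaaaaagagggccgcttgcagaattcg
Mt1: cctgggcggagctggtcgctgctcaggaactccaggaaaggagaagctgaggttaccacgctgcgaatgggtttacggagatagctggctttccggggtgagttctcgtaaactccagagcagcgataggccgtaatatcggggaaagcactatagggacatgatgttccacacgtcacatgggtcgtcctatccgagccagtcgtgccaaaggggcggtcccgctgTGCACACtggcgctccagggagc
At least 1 core was in 21.4% of the 32851 windows and 3 or more in 1.26%. With the 50 bases after the start included, Mt2 held 4 cores and Mt1 held 3, and 1.97% of such windows hold 3 or more. The genes themselves lie at chr8:94172664-94173568 (Mt2) and chr8:94179082-94180327 (Mt1), and Mt2 overlaps Gm45774 on the opposite strand. The Mt2 window ends at 94172617, short of that gene's first base, and the Mt1 window at 94179088, inside its gene. Positions and counts of cores therefore hold for the RefSeq starts alone.

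Read as a group, most members were higher in sorted ECs at E18.5 than at E15.5, and most were lower again at P8. A gene was called when it had at least 10 CPM in 1 of the 2 pools and the ratio after adding 0.5 CPM to both passed 2-fold. A gene under 10 CPM in 1 pool could thus be called in 1 direction only. Of the 7 members with enough signal, 5 were higher (Mt1, Tsc22d3, Per1, Zbtb16 and Nr3c1) and 0 lower, where 9.48% of all 8441 genes were higher and 4.83% lower. Mt1, Per1 and Zbtb16 held 1.45, 4.99 and 0.243 CPM at E15.5, so they could only be called higher. Mt1 lay at the cut, with 10.0 CPM at E18.5, and was not higher in the general capillary-like ECs, as given above. Tsc22d3 in the unsorted E18.5 ECs, at 91.4 and 93.3 CPM, was less than 2-fold above the 48.6 CPM of E15.5. With the SoupX correction Mt1 in both unsorted lungs lay below E15.5, as did Per1 (0.227 CPM) and Tsc22d3 (21.7 CPM) in the library labelled control. Zbtb16 and Nr3c1 stayed more than 2-fold above E15.5 in these pools. The median log2 ratio of the 7 members tested was 1.78, and that of all genes 0.20. Between E18.5 and P8, 4 of 7 were lower (Mt1, Fkbp5, Per1 and Zbtb16) against 4.02% of all genes, and 1 was higher (Sgk1) against 4.40%. Mt1, Fkbp5 and Zbtb16 were under 10 CPM at P8, so they could only be called lower. The median log2 ratio was -1.20, and that of all genes 0.04. Both comparisons share the E18.5 library. The members and the further lists were chosen with earlier results of these data known, so the counts here and below are descriptions.

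Taken over the 4 ages, 5 of the 7 members were highest at E18.5 in ECs (Mt1, Fkbp5, Tsc22d3, Per1 and Zbtb16, of which Tsc22d3 only with the sorted E18.5 library, Mt1 and Fkbp5 not with the SoupX-adjusted ECs of either unsorted lung, and Per1 not with those of the library labelled control), as were 22.4% of 9061 genes. Mt1, Per1 and Zbtb16 were at least 2-fold above both E15.5 and P8, and 1.11% of all genes were. Mt1 and Zbtb16 reached 10 CPM at E18.5 alone, so they entered these counts only through the age at which they were highest. The count of genes 2-fold above both ages was added after seeing the data. The earlier step, from E13.5 to E15.5, gave 0 of 4 members past 2-fold in ECs, with 7.03% of all genes past it in either direction. It rests on 165 ECs at E13.5. Mt1, Per1 and Zbtb16, which were called between E15.5 and E18.5, were under 10 CPM in both of these pools and were not tested. Sgk1 was 1.84-fold higher (1.40 to 2.46) and Nr3c1 1.20-fold higher (0.840 to 1.76), and Fkbp5 and Tsc22d3 were 1.37-fold (0.854 to 2.08) and 1.21-fold lower (0.937 to 1.53).

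**Figure D2:**
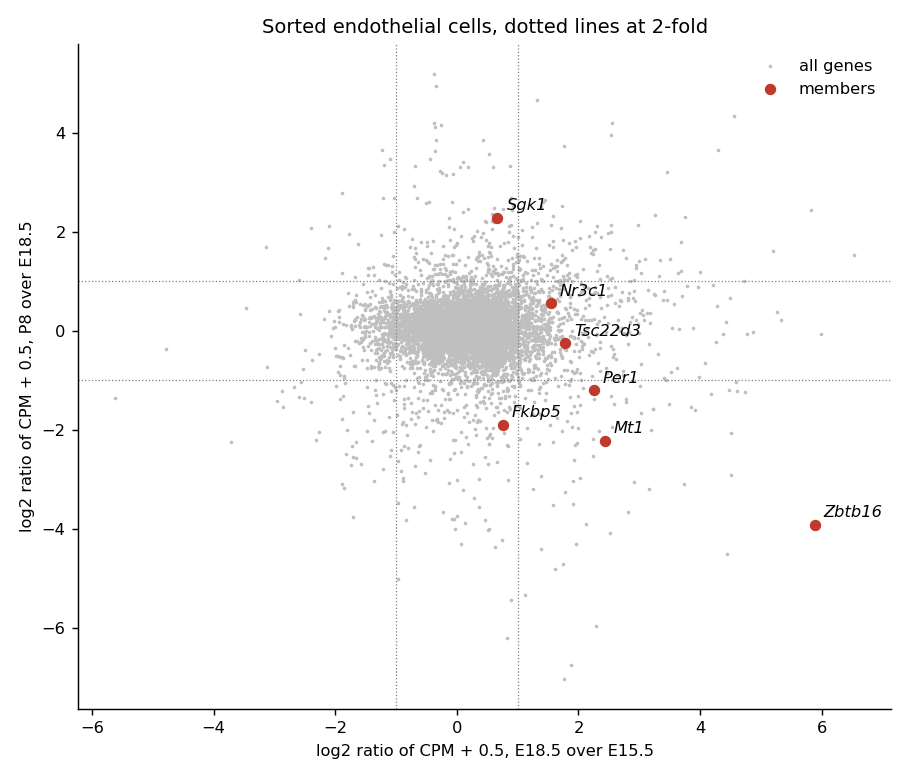
Log2 ratio of P8 over E18.5 (vertical axis) against log2 ratio of E18.5 over E15.5 (horizontal axis) in sorted endothelial cells, after adding 0.5 CPM, for 8692 genes (grey) and the 7 members with at least 10 CPM in 1 pool (red). Zbtb16, Mt1 and Per1 lie to the lower right, higher at E18.5 than at both other ages, and Sgk1 lies above 2-fold at P8 only; the axes share the E18.5 library, so some downward slope is built in.

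Mesenchymal cells gave the same direction at E18.5. All 9 members were tested and 8 were higher than at E15.5 by 2-fold or more, with 7.53% of 8775 genes higher. Sgk1 was the exception, at 1.83-fold (1.31 to 2.51), and the median log2 ratio was 2.03 against 0.06 for all genes. Mt2, Zbtb16 and Hsd11b1 were under 10 CPM at E15.5, so they could only be called higher. For the metallothioneins the count rests on the 278 cells of the sorted E18.5 library. Mt2 in unsorted mesenchymal cells was near its E15.5 level, as given above, and Mt1 there was 3.89 and 0 CPM with the SoupX correction, below the 21.4 CPM of E15.5. The 7 epithelial markers summed to 6.54, 14.9, 143 and 80.0 CPM in the sorted mesenchymal pools from E13.5 to P8, of which Sftpc made up 3.85, 0.480, 132 and 76.2 CPM. They were thus higher at E18.5 than at E15.5 and lower at P8, as Mt1 and Mt2 were, and their part in those values was not tested. From E18.5 to P8, with 278 and 68 cells, 5 were lower (Mt1, Mt2, Fkbp5, Per1 and Zbtb16) and 0 higher, against 9.0% and 9.49% of all genes. Mt2, Fkbp5 and Zbtb16 were under 10 CPM at P8, so they could only be called lower. Thinning to 2000 UMIs a cell left 3 of the 5 lower (Fkbp5, Per1 and Zbtb16), with log2 ratios of -0.29 for Mt1 and -0.27 for Mt2, and put Sgk1 past 2-fold higher (log2 ratio 1.36). Mt1 fell short under 3 further settings, Per1 with a pseudocount of 5 CPM, and Sgk1 passed with cells of 2 gates kept (2.60). The typical gene was itself 0.14 higher on the log2 scale at P8 there, by the median over genes of at least 50 CPM. From E13.5 to E15.5 only Mt1 passed 2-fold, at 4.56-fold (3.95 to 5.26), of 6 members tested, where 11.1% of all genes did in either direction. Mt2, Zbtb16 and Hsd11b1 were under 10 CPM at both ages and were not tested. Per1 was 1.75-fold and Nr3c1 1.24-fold higher, Tsc22d3 1.32-fold and Sgk1 1.36-fold lower, and Fkbp5 differed by 1.00-fold (0.861 to 1.17). The sub-class makeup of the sorted mesenchymal cells was not held constant over time, and its part in these steps was not tested.

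Sorted and unsorted ECs at E18.5 gave 0 of 7 members past 2-fold, with 4.36% of all genes past it in either direction, for the library labelled control. Its ECs held 5.10 CPM of Cxcl12 and the sorted ones 1254 CPM, so the genotypes set side by side may differ. The part of genotype was not tested. The library labelled null, at 564 CPM, was not compared in this way. The lowest ratio was that of Tsc22d3 given above. Zbtb16 differed by 1.02-fold (0.929 to 1.11), Sgk1 by 1.03-fold (0.981 to 1.09), Fkbp5 by 1.09-fold (0.968 to 1.22) and Mt1 by 1.11-fold (0.928 to 1.33), each with an interval that included 1. When cells that passed the gates of 2 classes were kept, Mt1 had a log2 ratio of 3.72 and the count was 3 in place of 0. With the SoupX correction the ECs of the library labelled control held 0 of Mt1, 4.90 CPM of Fkbp5, 21.7 CPM of Tsc22d3 and 0.227 CPM of Per1. Each was more than 2-fold below the sorted level, so the closeness of these 4 members holds for unadjusted counts alone. Zbtb16, Sgk1 and Nr3c1, at 46.0, 140 and 108 CPM, stayed close. Per1 was 1.30-fold (1.17 to 1.44) and Nr3c1 1.20-fold (1.13 to 1.27) higher in the unsorted ECs.

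In the unsorted lungs the members differed between cell classes, in an order that was not the same for each gene. Mesenchymal cells stood above ECs by 2-fold or more in both libraries for Hsd11b1, Mt1, Fkbp5, Tsc22d3 and Nr3c1, where 14.6% of 9163 genes did so, and below ECs for Sgk1, where 13.7% did. The folds in the libraries labelled control and null were 186 and 100 for Hsd11b1, 6.59 and 4.77 for Mt1, 3.58 and 4.22 for Fkbp5, 3.34 and 3.36 for Tsc22d3 and 2.14 and 2.41 for Nr3c1. Sgk1 was 6.41-fold and 5.31-fold lower in mesenchymal cells. Zbtb16 and Per1 were higher in mesenchymal cells too but short of 2-fold, by 1.92-fold and 1.81-fold and by 1.68-fold and 1.63-fold. SoupX-adjusted values changed these calls for some genes. Mt1 was no longer called, at 3.89 and 0 CPM in mesenchymal cells (labelled null and control) and 0 in ECs, and Per1 was, at 40.5 and 30.9 CPM against 17.8 and 0.227 CPM. The gaps of Fkbp5 (90.0 and 108 CPM against 9.56 and 4.90 CPM) and Tsc22d3 (334 and 381 CPM against 67.7 and 21.7 CPM) were wider than before the correction. So were those of Hsd11b1 (303 and 428 CPM against 0.0489 and 0.309 CPM) and, with ECs higher, of Sgk1 (12.01 and 5.00 CPM against 145 and 140 CPM). Epithelial cells held the lowest level of Sgk1 and Fkbp5 of the 4 classes and, with immune cells, little Zbtb16.

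**Figure D3:**
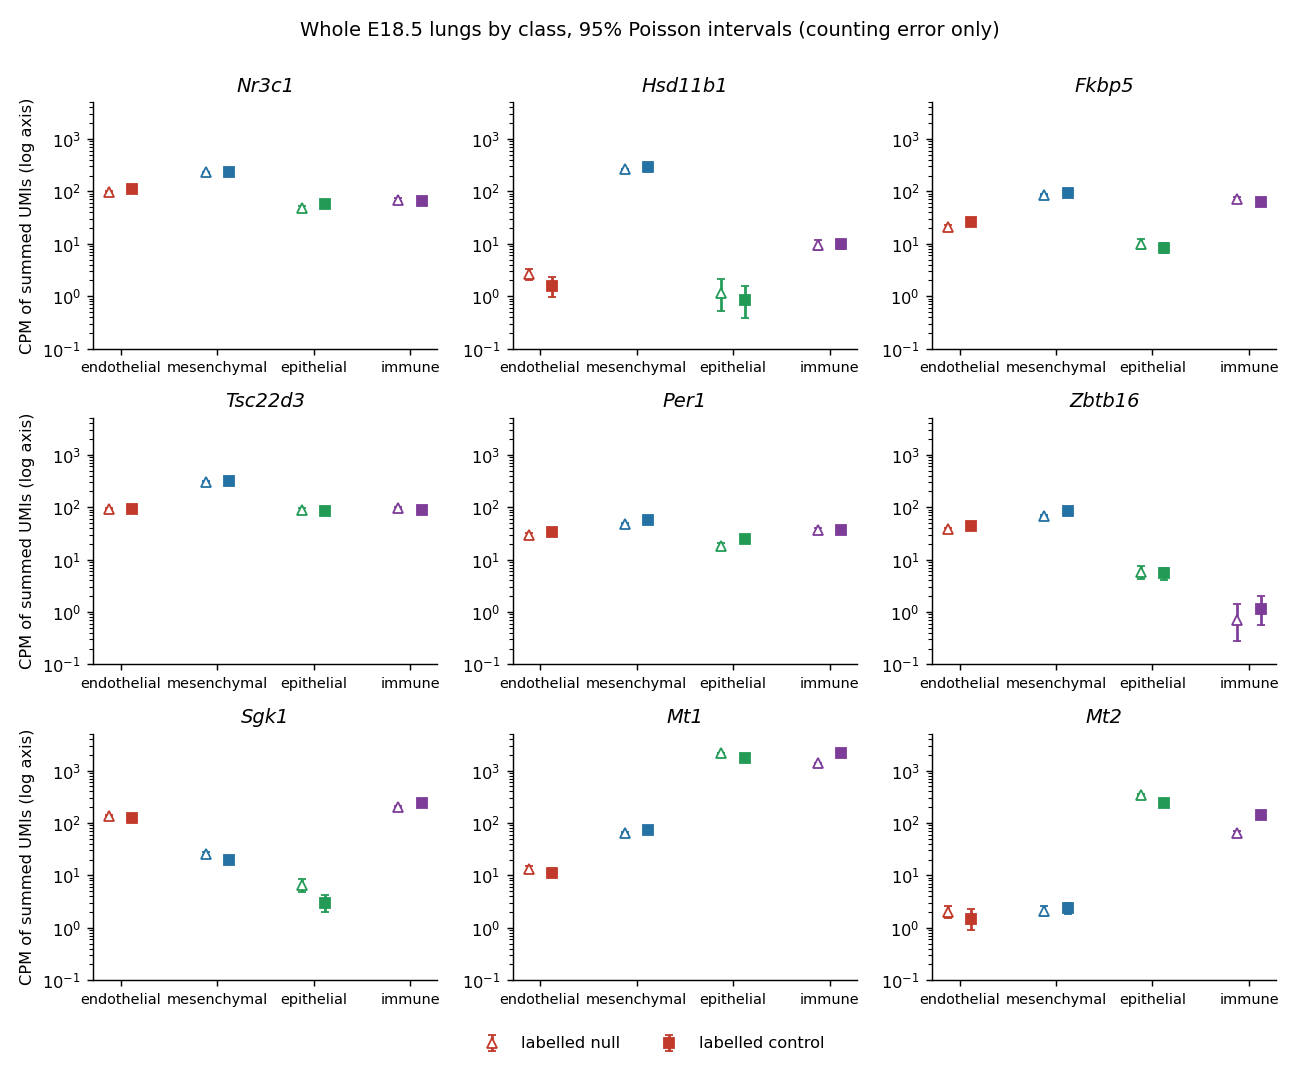
Levels of the 9 genes in CPM on a log axis in endothelial, mesenchymal, epithelial and immune cells of the unsorted E18.5 lungs labelled null (open triangles) and control (filled squares), with exact 95% Poisson bars for counting error. Mt1 and Mt2 were highest in epithelial and immune cells, Hsd11b1 in mesenchymal cells (262 and 286 CPM) and Sgk1 in immune cells and endothelial cells, and the markers of both libraries lay close together within most classes.

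Between the libraries labelled null and control few members differed. Past 2-fold were 0 of 7 members in ECs, 0 of 8 in mesenchymal cells, 0 of 5 in epithelial cells and 1 of 7 in immune cells, where 0.567%, 0.760%, 0.614% and 1.07% of all genes passed in either direction. The member past it was Mt2 in immune cells, with 64.7 CPM (59.8 to 69.8) in the library labelled null and 145 CPM (137 to 152) in the library labelled control, or 2.24-fold lower (2.03 to 2.46). It fell short of 2-fold with cells of 2 gates kept (log2 ratio -0.94) and without cycling cells. Mt1 there was 1.57-fold lower (1.54 to 1.61). In epithelial cells the direction was opposite, with Mt1 1.23-fold (1.21 to 1.26) and Mt2 1.41-fold (1.33 to 1.48) higher in the library labelled null. Mt1 in lymphoid-like immune cells was 1450 and 1905 CPM and in macrophage-like cells 1534 and 2252 CPM (labelled null and control). In ECs the folds lay between 1.02 and 1.25 for the 7 members tested, and in mesenchymal cells Sgk1 was 1.33-fold higher (1.20 to 1.47) in the library labelled null and the other members tested were lower there by 1.01-fold (Tsc22d3) to 1.24-fold (Zbtb16). In epithelial cells Per1 (17.8 and 24.6 CPM) was 1.38-fold and Nr3c1 (48.5 and 57.8 CPM) 1.19-fold lower in the library labelled null, and Tsc22d3 (88.0 and 85.9 CPM) differed by 1.02-fold (0.928 to 1.13). In immune cells the other members tested, Fkbp5, Tsc22d3 (96.4 and 88.5 CPM), Per1 (36.8 and 37.3 CPM), Sgk1 and Nr3c1 (69.7 and 64.8 CPM), differed by 1.01-fold to 1.16-fold. With SoupX-adjusted values more members passed 2-fold, since Per1 in ECs was then 17.8 and 0.227 CPM and Tsc22d3 67.7 and 21.7 CPM, whereas Zbtb16 (39.4 and 46.0 CPM), Sgk1 (145 and 140 CPM) and Nr3c1 (89.2 and 108 CPM) stayed near their unadjusted levels.

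**Figure D4:**
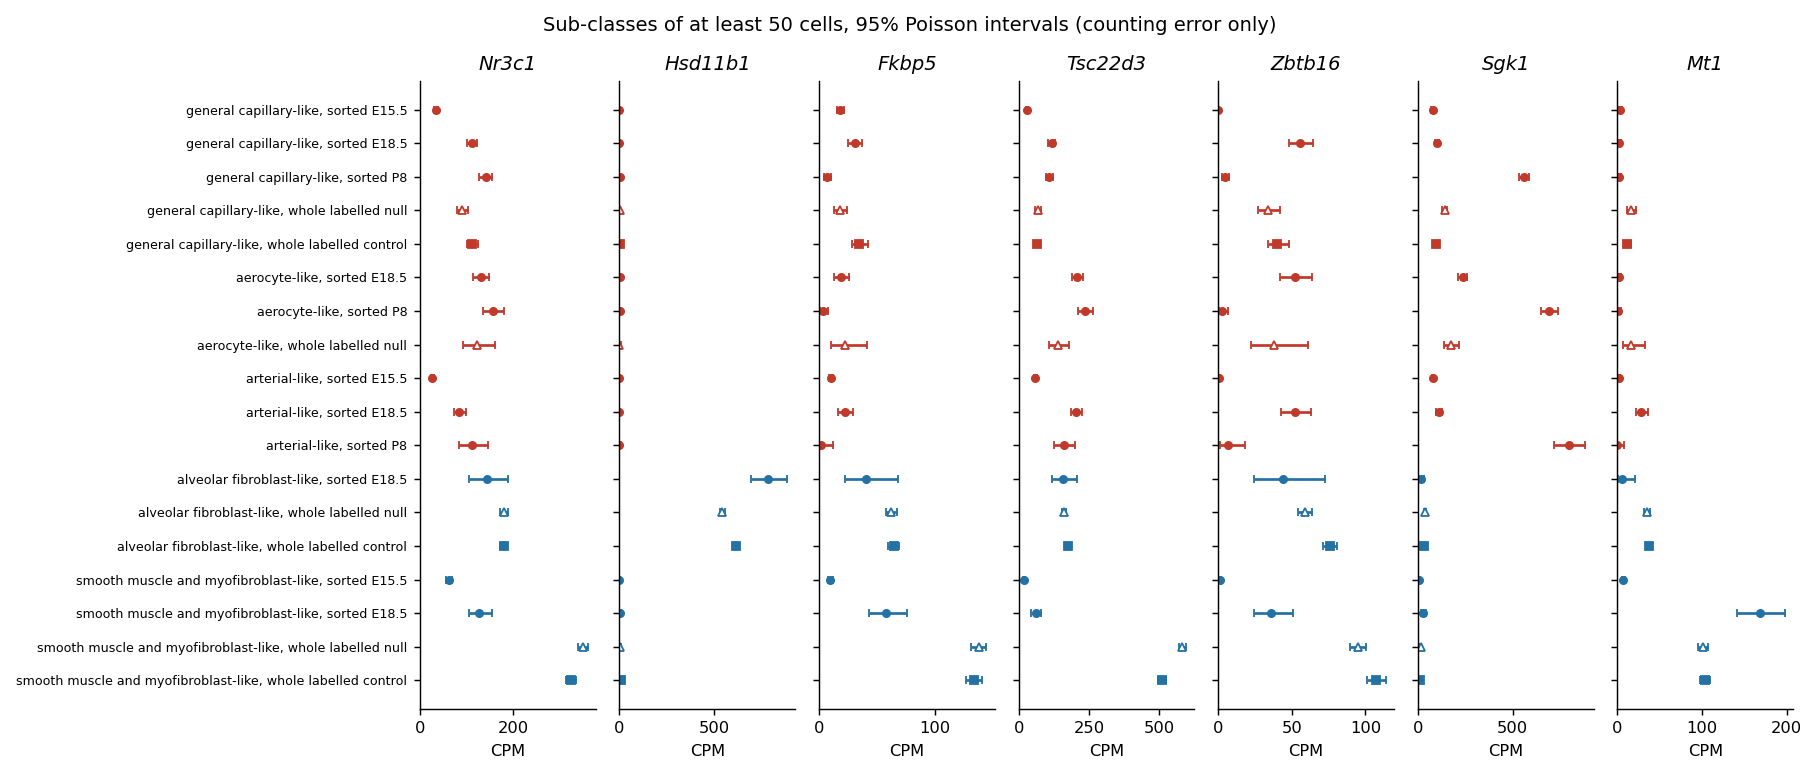
Levels of 7 members in CPM (horizontal axes, 1 panel a gene) in endothelial (red) and mesenchymal (blue) sub-classes with at least 50 cells in a library, 1 row for each sub-class and library (circles sorted, open triangles labelled null, squares labelled control), with exact 95% Poisson bars for counting error. Hsd11b1 measured 543 to 782 CPM in the alveolar fibroblast-like cells at E18.5 and 3.48 to 6.93 CPM in smooth muscle and myofibroblast-like cells, and Zbtb16 was higher at E18.5 than at E15.5 and P8 in the endothelial sub-classes drawn at those ages.

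Sub-classes of the unsorted mesenchyme also differed in the target genes. Fkbp5 held 138 and 134 CPM in smooth muscle and myofibroblast-like cells and 62.3 and 64.5 CPM in alveolar fibroblast-like cells. Zbtb16 held 94.6 and 107 CPM in the former and 59.0 and 75.9 CPM in the latter. Of these 2 sub-classes of the unsorted lungs, the one with more Hsd11b1 message therefore had less Fkbp5, Zbtb16 and Tsc22d3 message. Cells that passed more than 1 gate, which carried 42.9% and 20.5% of the Hsd11b1 UMIs (labelled null and control), were not part of this comparison. In the sorted E18.5 library Tsc22d3 had the other order, as given above. In ECs, Fkbp5 measured 18.5, 30.7 and 6.83 CPM at E15.5, E18.5 and P8 in general capillary-like cells and 10.0, 22.0 and 2.11 CPM in arterial-like cells. Tsc22d3 was higher in arterial-like than in general capillary-like ECs at each of these ages, with 59.3, 205 and 160 CPM against 30.2, 117 and 109 CPM.

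A further list held 28 genes taken as induced by glucocorticoids. Whether each is induced in these cells, and which respond to tissue dissociation as well, was not tested. Like the members, the list was chosen with earlier results of these data known, so its counts are not independent support. In ECs, 17 had enough signal between E15.5 and E18.5, and 10 were higher and 0 lower at E18.5, where 9.48% and 4.83% of all genes were, with a median log2 ratio of 1.29 against 0.20 for all genes. Sult1a1, Cdkn1a, Map3k6, Sox9, Klf9 and Arrdc2 were under 10 CPM at E15.5, so they could only be called higher. Sult1a1, a sulphotransferase, measured 6.01 CPM at E15.5, then 141 CPM at E18.5, with 5.65 CPM at P8. Sox9, a transcription factor, measured 2.42, 26.4 and 6.15 CPM, and Map3k6, a stress kinase, 0.474, 10.1 and 4.77 CPM. These 3 of 17 were at least 2-fold above both neighbouring ages, as were 1.11% of all genes. In ECs of the unsorted E18.5 lungs (labelled null and control) Sult1a1 measured 115 and 146 CPM, Map3k6 10.8 and 12.5 CPM and Sox9 18.45 and 9.30 CPM, so Sox9 was less than 2-fold above its P8 level in the second. Of 16 tested between unsorted (labelled control) and sorted ECs, 3 were past 2-fold lower, Sox9, Dusp1 and Glul, and 0 higher, where 4.36% of all genes passed in either direction. From E15.5 to P8, Cdkn1a, an inhibitor of the cell cycle, was higher at each later age (8.44, 111 and 251 CPM, after 16.2 CPM at E13.5). So was the transcription factor gene Klf9 (4.37, 41.2 and 113 CPM). Between E18.5 and P8, 4 of 16 were higher and 4 lower, against 4.40% and 4.02% of all genes, with a median of -0.28 against 0.04. Cdkn1c, another inhibitor, was lower at P8 (463 and 151 CPM) and Errfi1, a brake on growth factor receptors, was higher (24.2 and 80.1 CPM). In mesenchymal cells 13 of 20 were higher and 2 lower (Cdkn1c and Sox9) at E18.5 than at E15.5, where 7.53% and 3.15% of all genes were, with a median log2 ratio of 1.38 against 0.06. At P8, 1 of 19 was higher there than at E18.5 (Angptl4) and 4 were lower (Klf15, Cdkn1c, Lpin1 and Ddit4), against 9.49% and 9.0% of all genes, with a median of -0.38 against 0.12.

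The machinery around the receptor was listed apart. Of 17 genes for the second steroid receptor, hormone metabolism, chaperones and coactivators, 11 were tested in ECs between E15.5 and E18.5 and 0 passed 2-fold in either direction, where 9.48% of all genes were higher and 4.83% lower, with a median log2 ratio of 0.14 against 0.20. In mesenchymal cells 2 of 12 were higher at E18.5, against 7.53% of all genes, and 0 lower. They were H6pd, described above, and the co-chaperone gene Dnajb1 (66.5 and 134 CPM). From E18.5 to P8 in ECs, 1 of 12 was higher, against 4.40% of all genes: Abcb1a, a transporter that exports steroids (21.3 and 53.8 CPM). Of 15 further clock genes, 2 of 5 were higher in ECs at E18.5, Bhlhe40 (17.3 and 59.7 CPM) and Tef (5.10 and 12 CPM), against 9.48% of all genes. At P8, 2 of 7 were higher, against 4.40%, Nr1d2 (2.88 and 19.8 CPM) and Dbp (4.14 and 19.8 CPM). Of these 7, 0 were at least 2-fold above both E15.5 and P8 at E18.5, where 1.11% of all genes were.

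Of 12 metal response genes, 9 were tested in ECs between E15.5 and E18.5, and 1 was higher and 2 lower, against 9.48% and 4.83% of all genes. The zinc exporter gene Slc30a1, a target of MTF1, was higher at E18.5 (12.4 and 27.5 CPM). Mt3, a metallothionein best known from brain, was lower (19.2 and 0.213 CPM), as was the thioredoxin reductase gene Txnrd1 (77.5 and 34.8 CPM). The list's median log2 ratio was 0.15, close to that of all genes, and 0 of 8 passed 2-fold between E18.5 and P8, where 4.40% of all genes were higher and 4.02% lower. Of 13 lung maturation genes, 6 were tested in ECs between E15.5 and E18.5, where again 9.48% of all genes were higher and 4.83% lower, and 2 were higher at E18.5, Sftpc and Hopx (3.22 and 49.7 CPM, and 247 CPM at P8), and 1 lower, Fasn (23.5 and 10.0 CPM).

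Genes of the immediate early and heat shock response, which dissociation of tissue at 37°C can induce, moved as far as the members did. Of 20 listed, 18 were tested in ECs and 16 were higher at E18.5 than at E15.5, against 9.48% of all genes, with 0 lower and a median log2 ratio of 1.72. Fos measured 190 and 1118 CPM, Socs3 39.6 and 277 CPM, Hspa1a 34.8 and 407 CPM and Hspa1b 10.8 and 120 CPM. The list summed to 1428, 2376, 8632 and 17256 CPM in sorted ECs from E13.5 to P8 and to 5099 and 4688 CPM in unsorted ECs. At P8, 9 of 18 were higher still, against 4.40% of all genes, and 0 lower. Among the higher were Atf3 (116 and 704 CPM), Egr1 (157 and 468 CPM) and Ier3 (618 and 1774 CPM). The sum in sorted ECs was highest at P8, as Sgk1 and Nr3c1 were, and Zbtb16, Mt1, Per1, Fkbp5 and Tsc22d3 were highest at E18.5. Hspa1a and Hspa1b were highest at E18.5 too, with 228 and 61.4 CPM at P8, and measured 3.73 and 4.61 CPM and 2.06 and 2.59 CPM in the unsorted ECs. In those ECs the sum was lower than in the sorted ECs of E18.5. There, by unadjusted counts of the library labelled control, Tsc22d3 was lower as well (1.80-fold) and Per1 and Nr3c1 were higher. Zbtb16, Sgk1, Fkbp5 and Mt1 had folds whose intervals included 1. With the SoupX correction Per1 (0.227 CPM), Fkbp5 (4.90 CPM) and Mt1 (0) were also more than 2-fold below the sorted level, and Zbtb16, Sgk1 and Nr3c1 stayed close. In mesenchymal cells 18 of 19 were higher at E18.5 than at E15.5, against 7.53% of all genes, and at P8 1 was higher and 2 lower, against 9.49% and 9.0%. The list summed to 3335, 5536, 17527 and 15362 CPM in the sorted mesenchymal cells from E13.5 to P8. It was thus highest at E18.5 there, as Zbtb16, Mt1, Mt2, Per1, Fkbp5 and Tsc22d3 were, whereas Nr3c1, Hsd11b1 and Sgk1 were highest at P8. Between these ages Tsc22d3 (1.05-fold, 0.761 to 1.47), Hsd11b1 (1.12-fold, 0.875 to 1.42) and Sgk1 (1.75-fold, 0.959 to 3.05) were within counting error. Unsorted E18.5 mesenchymal cells held more than P8 of Hsd11b1 (262 and 286 against 160 CPM) and Nr3c1 (231 and 238 against 219 CPM). The part of the immediate early and heat shock response in the members' values was not tested.

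**Figure D5:**
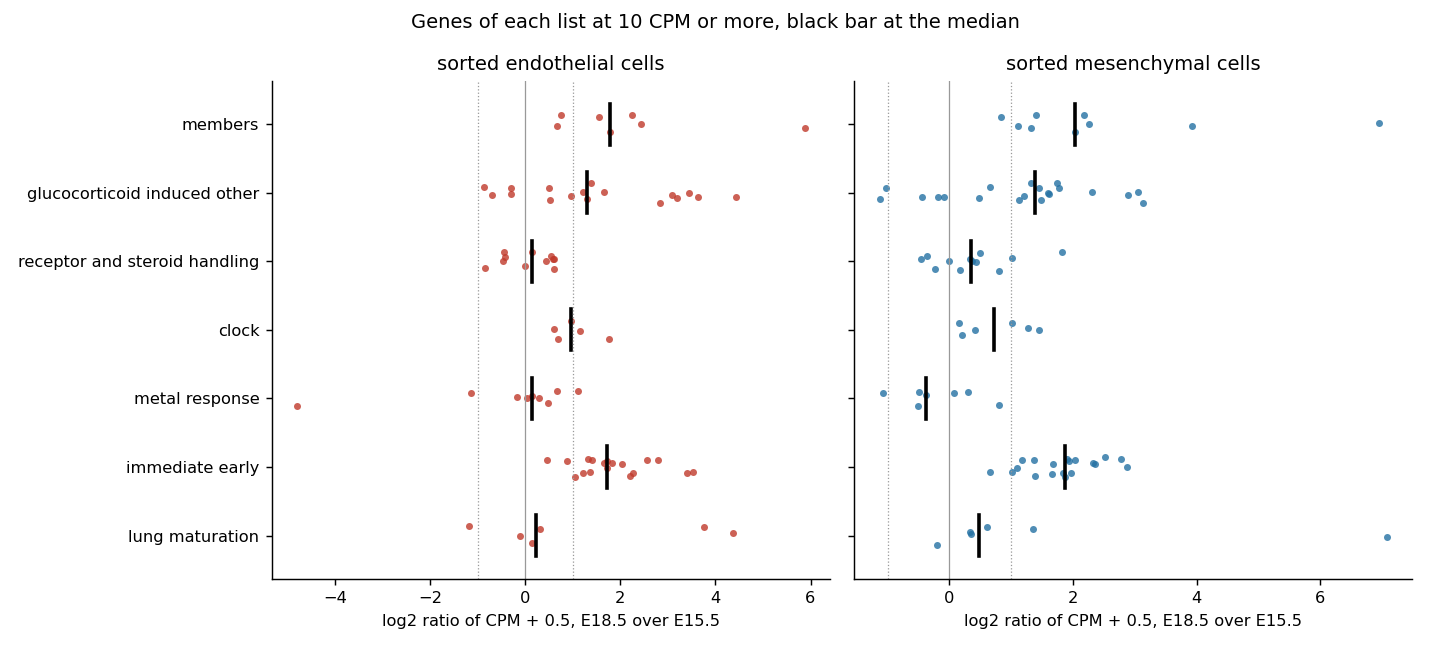
Log2 ratio of E18.5 over E15.5 after adding 0.5 CPM (horizontal axis) for each gene of the members and of 6 further lists with at least 10 CPM in 1 pool, in endothelial and mesenchymal cells, with the median of each list as a black bar and dotted lines at 2-fold. In endothelial cells the median was 1.78 for the members, 1.29 for other glucocorticoid-induced genes, 1.72 for immediate early genes and 0.14 for receptor and steroid handling genes, and that of all genes was 0.20.

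Erythroid and mesenchymal messages in the EC pools were followed as well. Haemoglobin and 2 other erythroid genes summed to 22.1, 531, 1242 and 934 CPM in sorted ECs from E13.5 to P8. The 7 mesenchymal markers summed to 169, 24.3, 13.9 and 9.32 CPM there, against 10197 CPM in the sorted mesenchymal cells of E18.5. In unsorted ECs they summed to 95.3 and 74.2 CPM. The part of these messages in the members' EC values was not tested.

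The genes most like each member over the 16 pools of a class and library with at least 50 cells were ranked by Pearson's coefficient on log2(CPM + 1). The pools share libraries and depth, so the values are descriptions. Hsd11b1 was nearest to Slc36a2 (0.984) and Cass4 (0.969), Sgk1 to Ube2d3 (0.972) and Rap1b (0.967), and Nr3c1 to Higd1b (0.948) and Pnrc1 (0.938). Zbtb16 was nearest to AC102334.1 (0.900) and Mapk1ip1 (0.899), Per1 to Hdac5 (0.921) and Phc3 (0.914), Tsc22d3 to Rb1cc1 (0.917) and Ypel3 (0.888), and Fkbp5 to Pex5 (0.891) and Tmem131 (0.881). Mt1 was nearest to Rab20 (0.966) and Dnase2a (0.963), and Mt2 to Cela1 (0.970) and Ak8 (0.964).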

How the data were processed

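Cells of 6 libraries were measured by 3′ droplet sequencing (10x v3). Reads were aligned to mm10 with Cell Ranger (3.1 in the submitters' notes, which also name Seurat 3.2.2; matrix headers give 3.0.2 and 3.1.0), and the authors deposited UMI counts by gene and cell barcode, whole numbers that were not scaled. Expected counts, adjusted for free RNA with SoupX, were deposited by the authors for the whole lungs alone, and served here as an alternative. The members and lists were chosen with earlier results of these data known. Cells with at least 700 genes and 0.5% to 10% mitochondrial UMIs were kept, which left 8268 to 12726 cells a library. Cells that passed the gates of more than 1 class (95 to 1159 a library) were left out, and no doublet caller was run. Epithelial cells needed 3 UMIs of Epcam, Cdh1, Krt8 and Krt18, and immune cells 2 of Ptprc, Coro1a and Laptm5. A sub-class needed 50 cells and no second gate of its class. UMIs were summed by class and library with Python 3.11.15, numpy 2.4.6, scipy 1.17.1 and pandas 2.3.3. Log2 ratios add 0.5 CPM. Folds in the text are plain ratios, those against 0 UMIs use a floor of 3 counts per library, and shares carry Clopper-Pearson intervals. The ratio script was tested on simulated data.

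All members entered each comparison. Of each further list, up to 4 genes with the largest absolute log2 ratio past 2-fold in ECs were named for each of the later steps, and for each member the 2 genes with the highest correlation. Klf9, Dnajb1, the steroid handling genes H6pd, Hsd11b2, Nr3c2 and Serpina6 and the list genes named for mesenchymal cells were picked with their values in view. The mesenchymal comparisons with E18.5 and P8, the count of genes 2-fold above both neighbouring ages, the account of Hsd11b1 over all mesenchymal gates and the setting without shared barcodes were added after seeing the data. The alternatives were stricter gates, cells passing more than 1 gate kept, other quality filters, the 5% of cells with the most UMIs left out, averages over cells, thinning, a pseudocount of 5 CPM, other scalings, cycling cells left out, SoupX-adjusted values and no minimum CPM.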

Additional observations from a re-analysis of the deposited data

Results flagged for a closer look

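Mt2 moved in opposite directions between the whole lungs in 2 cell classes. The log2 ratio of the library labelled null over the library labelled control was 0.49 in epithelial cells and -1.16 in immune cells. With 1 library of each label the difference was not tested.

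Cxcl12, which is not among the members, measured 564 CPM in ECs of the library labelled null and 5.10 CPM in those of the library labelled control, the reverse of what the labels would give. The signal bears on every comparison between these libraries, whose direction is therefore given by label alone.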

How the results depend on the processing

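No paired analysis was possible because each group had 1 library and no comparison was tested. Of the single-gene log2 ratios under the alternatives, 0 of those past 2-fold as reported changed sign, 802 stayed within their counting interval and 164 moved beyond it. The members past 2-fold in ECs numbered 4 to 6 for E18.5 over E15.5 (5 as reported) and 4 to 6 for P8 over E18.5 (5 as reported), and 7 to 9 in mesenchymal cells for E18.5 over E15.5 (8 as reported). In ECs 4 to 6 were highest at E18.5 and 2 to 4 were 2-fold above both E15.5 and P8, and 4 to 6 differed between mesenchymal cells and ECs in both whole lungs. For E15.5 over E13.5 in ECs the count went from 0 to 1 without the 5% of cells with the most UMIs, without cycling cells (Sgk1, log2 ratio 1.12 in both) and without the minimum CPM, and in mesenchymal cells from 1 to 2 without that minimum. For P8 over E18.5 in mesenchymal cells it went from 5 to 3 with a pseudocount of 5 CPM. For whole-lung control over sorted ECs it went from 0 to 3 when cells passing 2 gates were kept (Mt1, 3.72) and to 2 without the minimum CPM. For the libraries labelled null over control, SoupX-adjusted values gave 2 in place of 0 in ECs (Tsc22d3 1.62, Per1 4.65), 1 in place of 0 in mesenchymal cells (Sgk1 1.19), 1 in place of 0 in epithelial cells (Tsc22d3 1.96) and 3 in place of 1 in immune cells (Mt2 -1.48, Tsc22d3 1.90, Per1 2.27). Without the minimum CPM the epithelial count was 1. The immune count was 0 when cells passing 2 gates were kept and when cycling cells were left out. For null over control the SoupX-adjusted values changed the sign of 8 ratios, none past 2-fold as reported. In ECs these included Tsc22d3 (from -0.03) and Per1 (from -0.17). Per1 changed sign in immune cells (from -0.02) and mesenchymal cells (from -0.22 to 0.39), and Nr3c1 in epithelial cells (from -0.25 to 0.34). The rest had adjusted values under 10 CPM: Fkbp5 in ECs (from -0.31 to 0.90), Per1 in epithelial cells (from -0.45 to 2.57) and Mt1 in mesenchymal cells (from -0.19 to 3.13). The cause of these shifts was not tested. Fkbp5 in ECs passed 2-fold for E18.5 over E15.5 without cycling cells (log2 ratio 1.07), and Per1 fell short for P8 over E18.5 with a pseudocount of 5 CPM (-0.95). Depth limits the ECs of E13.5 and the mesenchymal cells of P8 most. SoupX-adjusted values exist here for whole lungs alone.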
